A study of Ambystoma mexicanum with 44 samples.

Results

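The genes described here are 58 genes of DNA replication and of the passage from G1 into S phase of the cell cycle, chosen by name for their function. The choice was made with earlier results of these data known. A gene was measured where a probe set of the array carried its symbol in the platform annotation. That held for 49 of the 58, out of 8639 genes with a probe set in all. Because 17 of the 49 had more than 1 probe set, the brightest on average across the 44 arrays stood for the gene. The origin recognition genes ORC1 to ORC6, the helicase partner CDC45, the transcription factor E2F1 and the ribonucleotide reductase subunit RRM2 were not analysed here.

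The samples were epidermis, with the cells that stuck to it, from aquatic axolotls (Ambystoma mexicanum), and each RNA sample joined 2 harvests from the same animal. In the innervated limb series the forelimb was cut off just above the elbow and the humerus was trimmed level with the wound, and samples came from uninjured skin (day 0) and from days 1, 3 and 7. The denervated limb series had the same amputation with the brachial nerves cut, and was sampled at days 1, 3 and 7. The flank series was a wound made with a 4 mm biopsy punch on the side of the body, with samples at days 0, 1, 3 and 7. Each of the 11 groups held 4 biological replicates on 4 arrays. Both limb series were set against the 4 uninjured innervated limb arrays, so their changes from day 0 share those arrays. Strain, age, sex, array batch and the time between nerve cutting and amputation were not given in the sources used here.

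DNA replication is licensed in G1, when CDC6 and CDT1 load the MCM helicase onto origins, and is fired at the G1/S boundary by cyclin E with CDK2. The helicase then unwinds the DNA with its partners, RPA coats the single strands, primase and polymerases copy them, and the PCNA clamp with its RFC loader holds the polymerases in place. Transcripts of many of these genes are known to rise in cells that enter S phase, and in salamanders the growth of the limb stump depends on nerve supply. Roles named below are those known from yeast and mammals.

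Levels are given on the log2 scale of the deposited table. A difference is a log2 difference ± its SE, and every group has n = 4 arrays. Differences were tested with limma across 20035 probe sets, and a gene was called higher or lower at a Benjamini-Hochberg adjusted p under 0.05. Of 27 keratinocyte markers 17 were measured, and KRT8 lay between 13.66 and 14.37, EPCAM between 12.43 and 13.88 and TP63 between 6.15 and 8.07 over all arrays. DSP lay between 12.8 and 13.68, JUP between 13.13 and 13.86 and PERP between 13.0 and 13.65. Some other markers were less steady or dim. ITGA6 ran from 5.0 to 10.28 and TGM1 from 6.76 to 11.67, and ITGB4 lay between 4.81 and 5.86. KRT5 and KRT14 were not analysed here. The mean of 17 skeletal muscle genes, centred gene by gene, ran from −2.20 to 4.24 over the arrays and was highest on 1 innervated day 1, 1 denervated day 3 and 1 flank day 0 array. In such bulk samples fewer cells of a type and less RNA per cell cannot be told apart.

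At day 7 the replication machinery was higher in innervated than in denervated limb epidermis. Of the 49 genes 16 were called higher and 0 lower, against 0.804% of all probe sets called higher and 0.893% lower. The difference was positive for 45 of the 49 genes, its median was 0.55, and the median over all probe sets was −0.005. For 0 of 49 genes was an unadjusted limma p under 0.05 reached in the lower direction, and for 31 in the higher one. Of all probe sets 5.90% and 5.50% reached it. The values of the groups did not overlap for 23 genes, all higher in the innervated limb, against 3.64% of all probe sets (4.92% were lower without overlap). The 16 adjusted p-values lay between 0.0152 and 0.0499, so all were close to the threshold.

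The MCM helicase, a ring of 6 related subunits, had all 6 genes positive, with a median of 1.11, and 4 of them called. MCM7 measured 11.36, 10.78, 10.51 and 10.22 on innervated replicates 1 to 4 and 9.62, 9.42, 9.56 and 9.53 on denervated replicates 1 to 4. Every innervated array lay above every denervated one, and the difference was 1.19 ± 0.27, or 2.27-fold (adjusted p = 0.0152). MCM2 stood at 10.62, 10.06, 9.68 and 9.55 with nerve and at 9.05, 8.79, 8.95 and 8.79 without. Again the groups did not overlap, and the difference was 1.08 ± 0.28 (adjusted p = 0.0401). MCM6 (difference 1.14 ± 0.31) and MCM4 (0.88 ± 0.24) were also higher. MCM3 had the widest difference of the ring, 1.47 ± 0.41 with no overlap, but its larger error left it outside the threshold (adjusted p = 0.0538), and MCM5 had 0.48 ± 0.26.

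Among the genes that load and activate the helicase, only MCM10, which helps to start the loaded helicase, was called (0.82 ± 0.23, adjusted p = 0.0499). The loaders CDC6 and CDT1 had differences of 1.22 ± 0.39 (adjusted p = 0.104) and 0.31 ± 0.13 (adjusted p = 0.288). The GINS complex, which joins the helicase at the fork, gave an uneven set of values. GINS2 and GINS3 had 0.68 ± 0.23 and 0.72 ± 0.26, whereas GINS1 and GINS4 had 0.14 ± 0.13 and 0.18 ± 0.10, and none of the 4 was called.

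The clamp gene PCNA measured 12.33, 11.71, 11.65 and 11.22 on the innervated arrays and 10.85, 10.64, 10.76 and 10.54 on the denervated ones. Its groups were apart by 1.03 ± 0.24, or 2.04-fold (adjusted p = 0.0174). RFC2, a small subunit of the clamp loader, read 9.82, 9.48, 9.4 and 9.25 in the innervated limb and 9.24, 8.63, 8.82 and 8.78 in the denervated limb. The lowest innervated array exceeded the highest denervated array by a narrow margin, with a difference of 0.62 ± 0.17 (adjusted p = 0.0442). The other loader subunits were not called, RFC1, RFC3 and RFC4 with differences between 0.23 and 0.27 and RFC5 with −0.19 ± 0.11.

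Single-strand binding protein RPA is a trimer, and the genes of 2 of its 3 subunits were higher. The smallest subunit RPA3 measured 11.17, 10.74, 10.53 and 10.53 in the innervated limb and 10.34, 10.19, 10.14 and 10.13 in the denervated limb (difference 0.54 ± 0.14, adjusted p = 0.0425). RPA2 differed by 0.87 ± 0.24 and RPA1 by 0.43 ± 0.17, the latter not called. FEN1, the nuclease that trims the ends of Okazaki fragments, read 10.21, 9.55, 9.54 and 9.03 with nerve and 9.03, 8.39, 8.5 and 8.63 without. It was the only gene of the 16 whose groups touched, with innervated replicate 4 level with denervated replicate 1, and its difference was 0.94 ± 0.22 (adjusted p = 0.0189). LIG1, the ligase that seals the fragments, had 0.35 ± 0.14 (adjusted p = 0.239).

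All 4 measured genes of nucleotide supply were higher. Thymidine kinase TK1, which salvages thymidine, measured 7.22, 6.25, 5.83 and 5.78 on innervated arrays and 5.1, 3.93, 4.57 and 4.45 on denervated arrays. This was the largest difference among the 49 genes, 1.76 ± 0.41, or 3.38-fold (adjusted p = 0.0189), and innervated replicate 1 stood well above the other arrays. RRM1, the large subunit of ribonucleotide reductase, read 11.33, 11.01, 11.01 and 10.63 with nerve and 10.39, 9.98, 10 and 10.12 without (0.87 ± 0.23, adjusted p = 0.0384). Thymidylate synthase TYMS stood at 9.05, 8.54, 8.33 and 8.22 against 7.85, 7.54, 7.56 and 7.36 (0.96 ± 0.25, adjusted p = 0.0415). DUT, which keeps uracil out of DNA by destroying dUTP, stood at 11.65, 11.35, 11.26 and 11.18 against 11.07, 10.92, 10.62 and 10.63 (0.55 ± 0.14, adjusted p = 0.0344). For these 4 genes no innervated array fell as low as a denervated one.

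UHRF1, which recruits the maintenance methyltransferase to newly made DNA, measured 10.69, 10.08, 9.56 and 9.16 in the innervated limb and 8.42, 7.79, 8.13 and 8.18 in the denervated limb. Its groups were 1.74 ± 0.44 apart, or 3.35-fold (adjusted p = 0.0293). The methyltransferase itself, DNMT1, read between 10.66 and 10.81 with nerve and between 10.67 and 10.91 without, a difference of −0.03 ± 0.14 (adjusted p = 0.982). The chromatin assembly factor genes CHAF1A (0.76 ± 0.24) and CHAF1B (0.62 ± 0.21) and the histone messenger binding protein SLBP (0.51 ± 0.18) had groups that did not overlap but were not called. The cyclin E genes also went separate ways. CCNE2 measured 6.41, 6.01, 5.84 and 5.39 on innervated and 5.1, 4.8, 4.68 and 5.12 on denervated arrays (0.99 ± 0.25, adjusted p = 0.0282), whereas CCNE1 differed by −0.03 ± 0.11. Their kinase CDK2 differed by 0.08 ± 0.08, and CDC25A, the phosphatase that activates it, by 0.78 ± 0.24 (adjusted p = 0.0844).

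The polymerase and primase genes stood lowest among the larger roles, with 0 of 9 called and a median difference of 0.12. By limma 3 of the 9, POLE, POLA2 and PRIM1, had an unadjusted p under 0.05, with 0.72 ± 0.29, 0.75 ± 0.31 and 0.57 ± 0.26. POLE2 depended on the probe set. Its brightest (mean 6.54) differed by 0.10 ± 0.13, and its other, nearly as bright (mean 6.48), by 0.635 ± 0.234 (unadjusted p = 0.0101, adjusted p = 0.198). The dim second probe set of POLA2 differed by 0.09 ± 0.10. The lagging strand polymerase subunits POLD1, POLD2 and POLD3 lay between −0.05 and 0.09, with SE of 0.08 to 0.09. The checkpoint kinase CHEK1 (0.04 ± 0.10) and the fork protection pair TIPIN (0.15 ± 0.12) and TIMELESS (0.25 ± 0.13) were not called either, although CHEK1 and TIPIN are dim on these arrays, with all day 7 limb values under 5. CDT1 (mean 4.10 over the 44 arrays), MCM10 (4.48), CDK2 (4.75) and POLD1 (4.98) are dim too, so their values above carry the same limit.

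**Figure D1:**
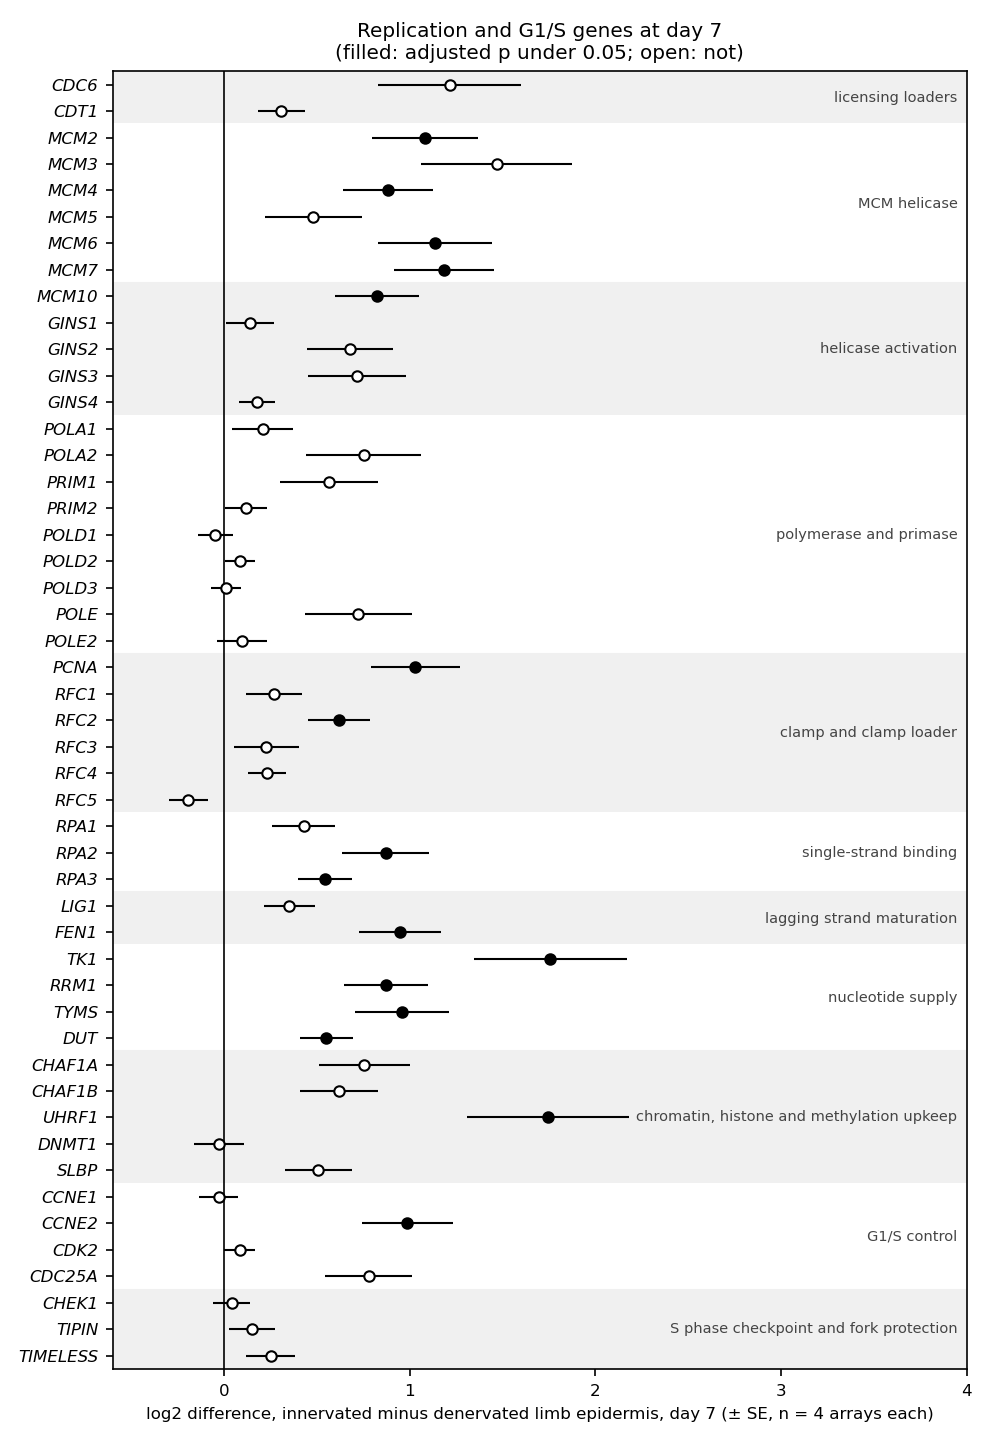
Log2 difference of innervated minus denervated limb epidermis at day 7 for each of the 49 genes, grouped by role, with bars of 1 SE and n = 4 arrays in each group. Filled points are the 16 genes called at an adjusted p under 0.05. The filled points run from 0.54 for RPA3 to 1.76 for TK1, and none of the 9 polymerase and primase genes is filled.

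The day 7 difference was carried unevenly by the arrays. Innervated replicate 1 was the highest innervated array for 16 of the 16 called genes and replicate 4 the lowest for 13, and denervated replicate 1 was the highest denervated array for 15. In the innervated limb, replicate 1 was also highest for 15 of the 16 at day 0 and for 14 at day 3. At day 1 it was highest for 1 and lowest for 11. Replicate 4 was lowest for 12 at day 0 and for 1 at both day 1 and day 3. The labels do not say that arrays of the same number are paired. The mean of the 49 genes, each centred on its mean over the 44 arrays, was 0.69, 0.36, 0.22 and 0.07 on innervated replicates 1 to 4 and −0.05, −0.31, −0.27 and −0.31 on denervated replicates 1 to 4. All 4 innervated arrays thus lay above all 4 denervated ones. Without innervated replicate 1 the number called was 0 of 49 (against 0.14% of all probe sets). All 16 differences then stayed positive, between 0.40 and 1.47, with an unadjusted limma p under 0.05 for each. The 16 were chosen with these same arrays, so this is a description and no separate support. Without innervated replicate 2 the number called was 4, and without denervated replicates 1, 2, 3 and 4 it was 10, 1, 3 and 4. It was 11, 8 of them among the 16, in a fit on the 8 day 7 limb arrays alone.

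Myeloid markers moved the other way at day 7. Of 24 such genes 15 were measured, 14 of them with a lower mean in the innervated limb, and 1, the macrophage receptor CSF1R, was called lower (−0.68, adjusted p = 0.0274). An unadjusted limma p under 0.05 was reached by 12 of the 15 in the lower direction and by 0 in the higher one. Of all probe sets 5.90% and 5.50% reached it. The mean of the 15, centred gene by gene, ran from −0.01 to 0.62 over the innervated arrays and from 0.82 to 0.96 over the denervated arrays, and the part of this in the difference of the replication genes was not tested. The keratinocyte mean ran from −0.02 to 0.13 and from −0.06 to 0.09, and the muscle mean from −2.09 to −2.05 and from −2.20 to −1.98. None of the 17 keratinocyte or 17 muscle genes was called at day 7, and at an unadjusted limma p under 0.05 the counts were 0 and 1. Markers of erythrocytes and thrombocytes (5 of 14 measured), fibroblasts and matrix (20 of 21), endothelium (9 of 10), nerve and Schwann cells (9 of 13) and lymphoid cells (2 of 11) also had 0 called by limma, with unadjusted p under 0.05 for 1, 1, 0, 1 and 0 of them, all lower with nerve.

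At days 1 and 3 no replication gene was called between innervated and denervated limb. At day 1 limma gave 0 of 49 in either direction, against 0.015% of all probe sets higher and 0.00499% lower, with a median difference of 0.01. Its unadjusted p was under 0.05 for 0 genes higher and 4 lower, against 3.45% and 4.45% of all probe sets. At day 3 limma gave 0 in either direction, against 0.23% and 0.0349%, with a median of 0.10. Its unadjusted p was then under 0.05 for 1 gene higher and 0 lower, against 3.76% and 2.87% of all probe sets. At day 1 CDK2 read 4.67, 4.7, 4.55 and 4.69 with nerve and 4.94, 5.05, 4.86 and 4.81 without, and this smallest adjusted p of the day was 0.288. The difference at day 3 was positive for 36 genes and the one at day 7 for 45.

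The change of the difference between days was tested as such. From day 3 to day 7 the difference grew by a median of 0.49 over the 49 genes, but 0 were called in either direction, against 0.00499% of all probe sets higher and 0.0499% lower. An unadjusted limma p under 0.05 was reached by 19, all in the higher direction, against 2.90% of all probe sets higher and 3.86% lower. The smallest adjusted p was 0.372, for PCNA (1.05). From day 1 to day 7 the median was also 0.49, and 1 gene was called higher and 0 lower, against 0.255% and 0.349% of all probe sets. At an unadjusted limma p under 0.05 there were 25 higher and 0 lower, against 5.55% and 5.96%. The gene called was TK1. At day 1 it measured 4.16, 4.35, 4.17 and 4.66 in the innervated limb and 5.65, 4.89, 5.51 and 5.92 in the denervated limb, so that all innervated arrays were the lower ones (−1.16, adjusted p = 0.398). At day 7 the order was turned, and the change of the difference was 2.92 ± 0.58 (adjusted p = 0.0177). It was not called without innervated day 7 replicate 1. A day 7 difference in level was therefore measured for 16 genes, while a change of that difference between days was called for TK1 alone.

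**Figure D2:**
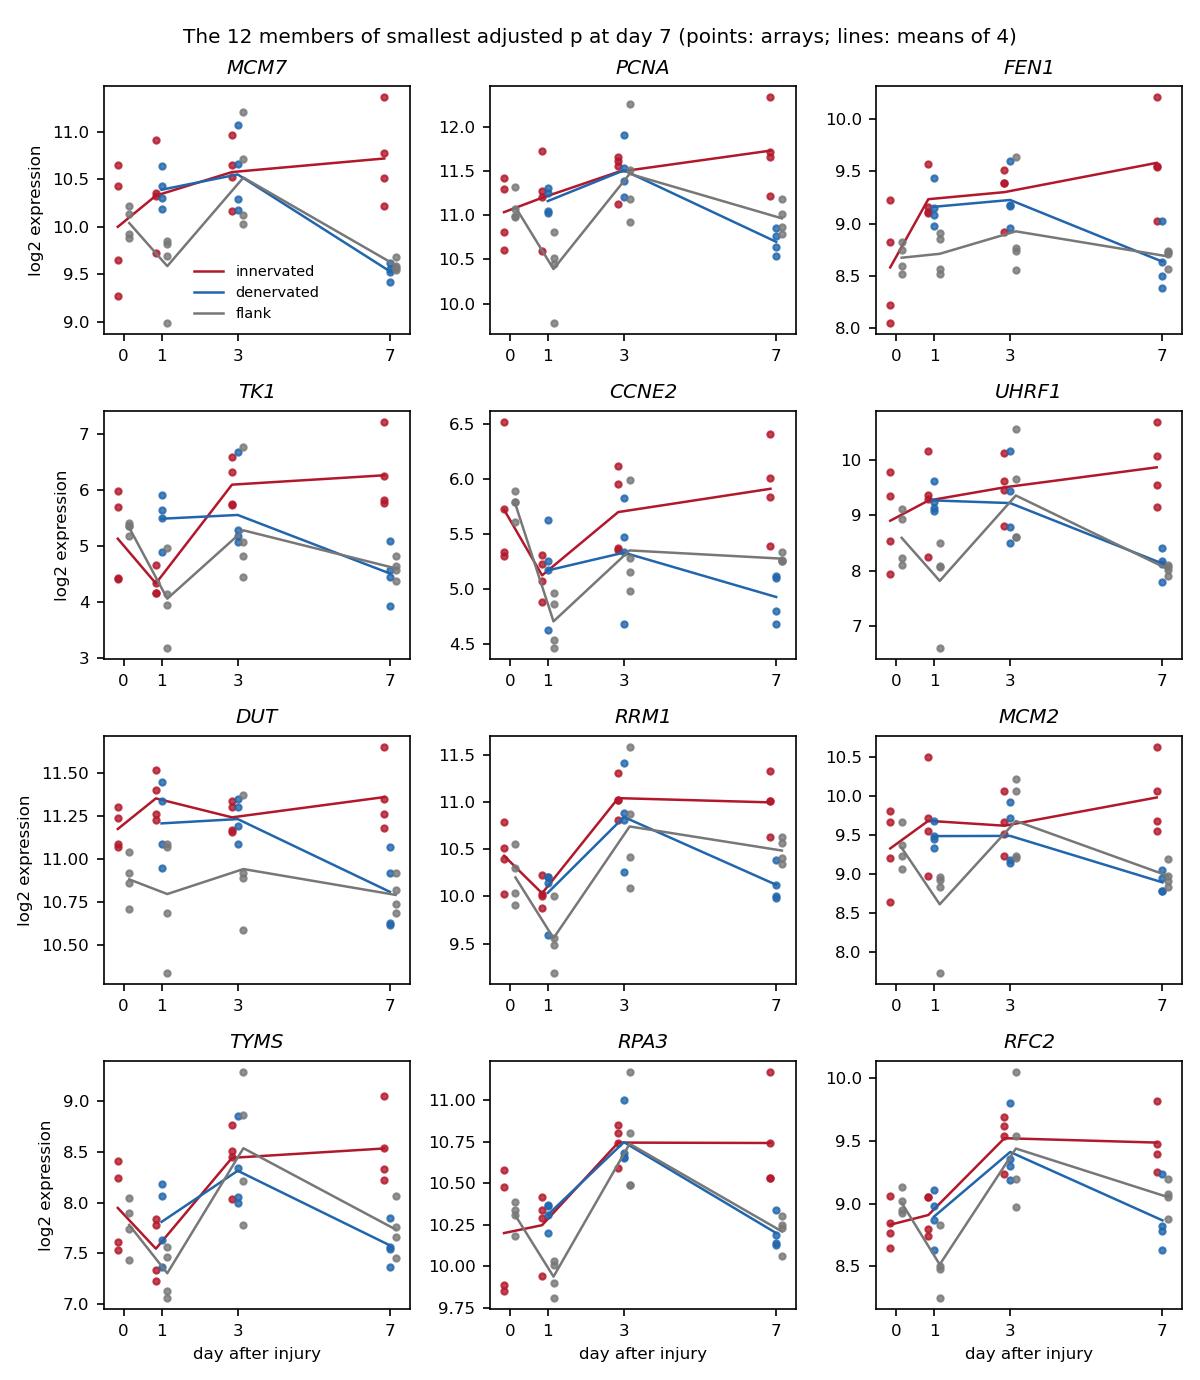
Log2 expression of the 12 genes with the smallest adjusted p at day 7, by day after injury, in innervated limb (red), denervated limb (blue) and flank (grey). Points are arrays, slightly shifted sideways, and lines join means of 4. In all 12 panels the innervated mean is the highest of the 3 at day 7, and for MCM7 the day 7 means of the limb series are 10.72 and 9.53.

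In the innervated limb at day 1 several genes of the copying enzymes were lower than before injury. Compared with uninjured limb skin, 14 of 49 were lower and 1 was higher, against 21.2% and 14.7% of all probe sets, so the share lower was near that of the whole array. Most of the 14 belong to the copying enzymes, with 6 of 9 polymerase and primase genes and 3 of 6 clamp and loader genes, beside 0 of 6 MCM genes and 0 of 4 nucleotide supply genes. PRIM2, the large primase subunit, went from 8.77, 8.54, 8.7 and 8.48 on day 0 arrays to 8.07, 7.54, 7.55 and 7.77 on day 1 arrays, a fall in which no arrays overlapped (−0.89 ± 0.11, adjusted p = 6.31e-08). DNMT1 went from 11.06, 10.81, 11.12 and 10.75 to 10.19, 10.22, 9.62 and 9.78 (−0.98 ± 0.14, adjusted p = 2.57e-07). The large clamp loader subunit RFC1 went from 8.45, 8.01, 8.22 and 8.34 to 7.35, 7.21, 6.91 and 7.4 (−1.04 ± 0.15). Both drops were wide enough to keep all day 1 arrays below all day 0 arrays.

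The others that fell in the innervated limb at day 1 were POLD2, POLD3, POLE, POLE2, POLA2, RFC3, RFC4, GINS1, CDC25A, TIPIN and TIMELESS, with differences between −1.61 for the leading strand polymerase POLE and −0.25 for POLD3. FEN1 was the 1 gene that rose (0.65 ± 0.22, adjusted p = 0.0179). In the same comparison MCM3, MCM6, MCM2 and MCM7 had positive differences that were not called, the widest 0.97 for MCM3. Leaving out the 3 arrays of highest muscle signal, of which only 1 belongs to this comparison, gave 13 lower and 1 higher. All 17 measured muscle genes had a higher mean at day 1 than at day 0 (median 2.31), 8 of them called. Of 5 erythrocyte and thrombocyte markers 4 were called higher and 0 lower, and of 20 fibroblast and matrix markers 8 and 0. Of 17 keratinocyte markers 10 were called higher and 3 lower, and of 15 myeloid markers 7 and 0. The counts were 3 and 0 of 9 for endothelium, 4 and 0 of 9 for nerve and Schwann cells and 0 and 0 of 2 for lymphoid cells. Of all probe sets 14.7% were called higher and 21.2% lower. The part of these shifts in the day 1 falls was not tested.

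The 14 genes that fell at day 1 and the 16 genes higher with nerve at day 7 had 0 genes in common, 0% of each list. Among all 49 genes 14 fell and 16 were called at day 7. These comparisons share no arrays. Among the 14, DNMT1 and POLD3 had day 7 nerve differences of −0.03 and 0.01, and the widest were 0.78 for CDC25A, 0.75 for POLA2 and 0.72 for POLE. Over the 16, the day 1 change in the innervated limb ran from −0.80 for TK1 to 0.65 for FEN1, with a median of 0.06, 9 positive and 7 negative. TK1, CCNE2 (−0.60), TYMS (−0.40) and RRM1 (−0.40) had falls that were not called but were wider than that of POLD3, which was called. The lack of overlap thus depends on the threshold.

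**Figure D3:**
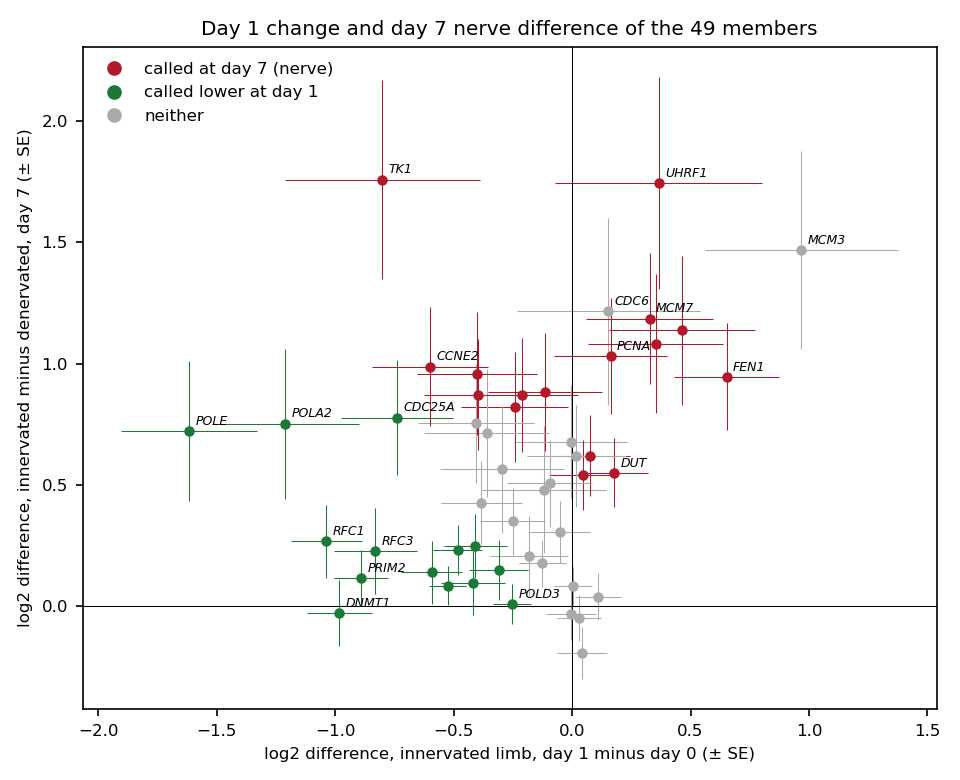
For each of the 49 genes, the log2 difference of innervated limb day 1 minus day 0 (horizontal) and of innervated minus denervated limb at day 7 (vertical), with bars of 1 SE. Red points are the 16 genes called at day 7 and green points the 14 called lower at day 1. No gene is in both sets, and POLE, POLA2 and CDC25A are the green points with the widest vertical values.

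The denervated limb at day 1 gave 12 genes lower and 2 higher against the same day 0 arrays, beside 20.1% and 14.1% of all probe sets. Its share lower was again near that of the whole array. PRIM2 was again lower, at 7.79, 7.55, 7.68 and 7.63 (−0.96 ± 0.11), and DNMT1 at 9.8, 9.6, 10.01 and 9.84 (−1.12 ± 0.14). Of the genes that fell at day 1 in the innervated limb, GINS1 was the 1 still called lower than day 0 there at day 3. In the denervated limb GINS1 and PRIM2 were still called lower at day 3. From day 1 to day 3, 18 genes rose and 0 fell in the innervated limb, against 15.8% and 10.5% of all probe sets, and 15 rose and 1 fell in the denervated limb, against 15.7% and 11.7%. The delta polymerase subunit POLD2 had the smallest adjusted p in both, going from 7.54, 7.83, 7.64 and 7.77 to 8.66, 8.68, 8.58 and 8.62 with nerve (0.94 ± 0.08) and from 7.55, 7.4, 7.65 and 7.77 to 8.7, 8.67, 8.79 and 8.57 without (1.09 ± 0.08). POLD2 ended above its day 0 arrays, which lay between 8.11 and 8.37.

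At day 3 the innervated limb had 8 genes higher and 1 lower than at day 0, against 12.5% and 13.4% of all probe sets, and the denervated limb 7 higher and 2 lower, against 12.4% and 14.1%. In both the share higher was near that of the whole array, and the share lower was below it. Those higher with nerve were POLD2, RFC2, RPA3, RFC4, FEN1, SLBP, RRM1 and TIMELESS, with differences of 0.35 to 0.72. Those higher without nerve were POLD2, RFC4, RPA3, RFC2, SLBP, FEN1 and GINS2, from 0.39 to 0.68. GINS1 was lower in both, and PRIM2 was lower without nerve. The GINS1 arrays stood at 9.22, 9.2, 9.76 and 9.34 on day 0, at 8.93, 9.11, 8.6 and 8.74 on day 3 with nerve and at 8.51, 8.9, 8.64 and 8.93 without. Single arrays moved these counts, the innervated one to between 4 and 13 and the denervated one to 3 without denervated day 3 replicate 2 and to 4 without innervated day 0 replicate 4. For the innervated count these arrays were day 0 replicates 1, 3 and 4 (13, 4 and 5) and day 3 replicate 1 (5).

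By day 7 the median gene lay above day 0 in the innervated limb and below it in the denervated limb. The innervated limb had 11 genes higher and 2 lower, against 12.8% and 13.8% of all probe sets. Same-numbered arrays of these groups correlated above 0.1 for all 4 numbers, the 1 pair of groups of 55 to do so, and the labels do not say that they are paired. A fit on their 8 arrays with the replicate number as a block was chosen after seeing the data. It gave 22 higher and 4 lower, and on the same arrays without the block 4 were higher. The 22 is therefore a description and no separate support. The denervated limb had 1 higher and 8 lower, against 13.1% and 13.9%, so its share lower was near that of the whole array. Over all 49 genes the median change was 0.21 with nerve and −0.27 without, beside −0.03 and −0.02 for all probe sets. Without 1 array the innervated count was 7 (day 0 replicate 3), 6 (day 0 replicate 4) or 6 (day 7 replicate 1), and the denervated count of lower genes was 5 without day 0 replicate 1.

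FEN1 was among the 11 that rose with nerve, from 9.23, 8.83, 8.05 and 8.22 on day 0 to 10.21, 9.55, 9.54 and 9.03 on day 7, with overlap between the groups (1.00 ± 0.22, adjusted p = 0.000498). In the denervated limb its change from day 0 was 0.05. The others that rose with nerve were POLD2, RFC2, TIMELESS, RPA3, RFC4, MCM6, PCNA, TK1, MCM3 and MCM7. The genes that fell without nerve were GINS1, PRIM2, CDC25A, POLE, RPA1, CCNE2, MCM10 and GINS3, by 0.59 to 1.26. GINS1 and PRIM2 also fell in the innervated limb, GINS1 to 8.73, 8.5, 8.77 and 8.6 and PRIM2 to 8.24, 8.16, 8.12 and 8.01.

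Between days 3 and 7 the innervated limb had 0 genes called in either direction, against 1.83% of all probe sets higher and 1.69% lower. At an unadjusted limma p under 0.05 it had 0 higher and 1 lower, against 6.66% and 6.58%. The denervated limb had 0 called higher and 7 called lower, against 3.85% and 2.64%, and 44 of its 49 differences were negative, with a median of −0.45. RPA3 fell from 10.65, 11, 10.68 and 10.66 to 10.34, 10.19, 10.14 and 10.13 with no overlap (−0.55 ± 0.14, adjusted p = 0.0144). MCM7 fell from 10.18, 11.07, 10.29 and 10.66 to 9.62, 9.42, 9.56 and 9.53 (−1.02 ± 0.27, adjusted p = 0.0145). GINS2, SLBP, PCNA, GINS4 and RFC2 were the other 5. This count was 0 without denervated day 3 replicate 2, the array of highest MCM7 and RPA3 in that group, and 11, 2 and 3 without denervated day 7 replicates 1, 2 and 3. Whether the limb series differed in this step was tested above as the change of the nerve difference from day 3 to day 7.

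The 16 genes called at day 7 were chosen with the day 7 limb arrays, so their changes over time are a description. Their median change from day 0 to day 7 was 0.62 with nerve, and all 16 values were positive. It was −0.37 without nerve, with 13 negative. From day 3 to day 7 the medians were 0.16 with nerve and −0.67 without, and all 16 values without nerve were negative.

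**Figure D4:**
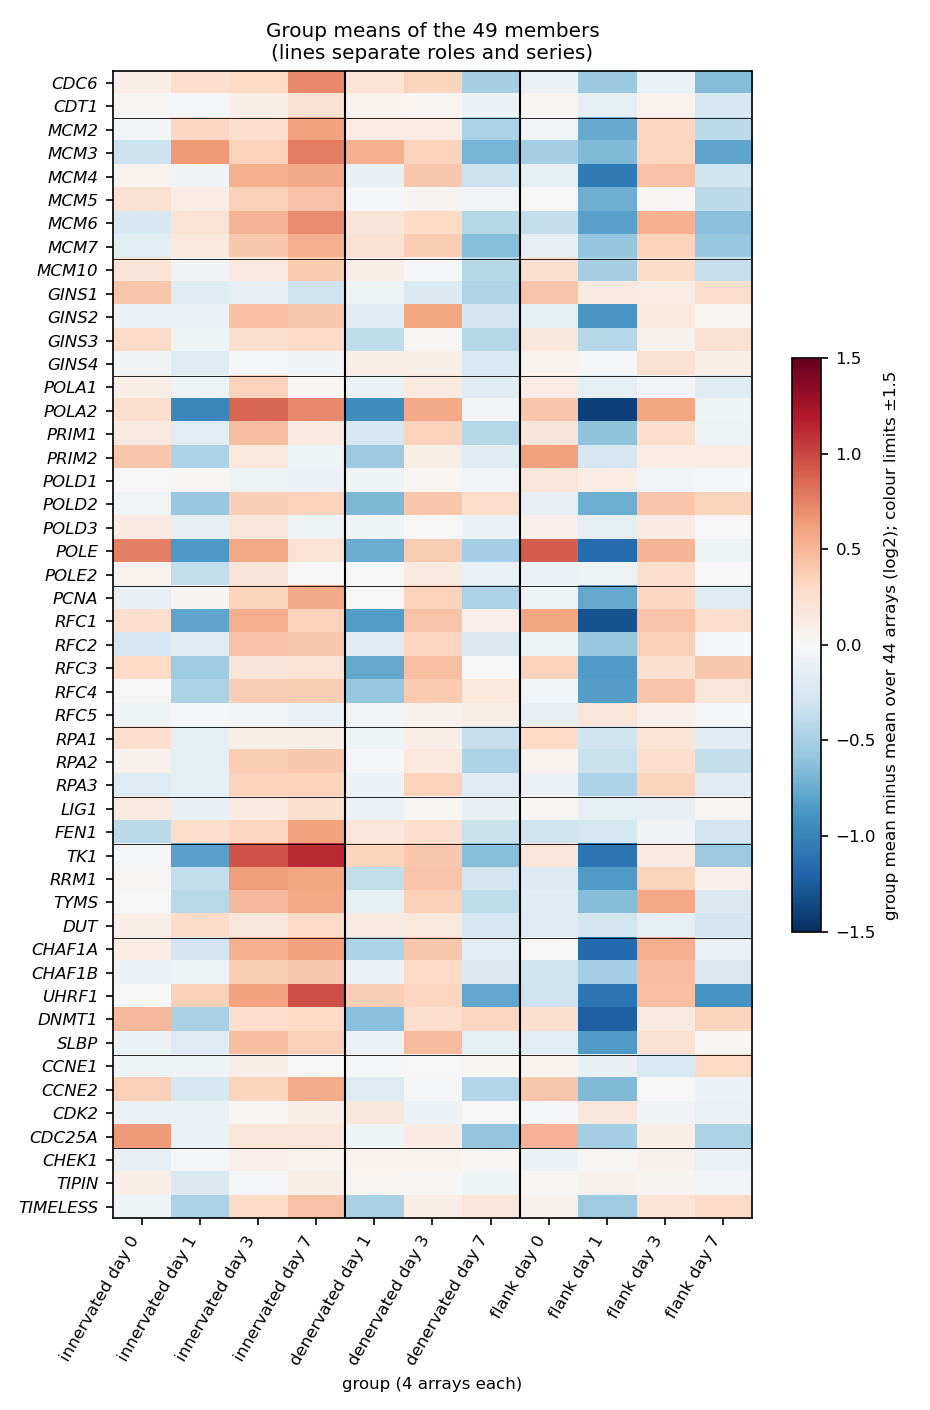
Group means of the 49 genes (rows, by role) in the 11 groups (columns, by series and day), shown as log2 difference from each gene's mean over 44 arrays, with colour limits of ±1.5. The 6 MCM rows are at their reddest at innervated day 7 and below 0 at denervated day 7 and flank day 1. The POLA2, POLE and RFC1 rows are blue at day 1 in all 3 series.

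Of the 3 series the flank wound had the lowest median of the genes at day 1. There 26 of 49 were lower and 2 higher than in uninjured flank skin, against 21.3% and 20% of all probe sets, with a median change of −0.59 beside 0.05 for all probe sets. RFC1 went from 8.81, 8.51, 8.45 and 8.65 to 6.74, 6.56, 6.22 and 7.28 (−1.91 ± 0.15, adjusted p = 6.32e-13). DNMT1 went from 10.83, 10.58, 10.67 and 10.63 to 9.4, 9.2, 8.99 and 9.27 (−1.46 ± 0.14). POLD2 went from 8.18, 8.11, 8.01 and 8.28 to 7.68, 7.46, 7.51 and 7.48, and RFC4 from 8.73, 8.47, 8.74 and 8.63 to 7.96, 7.75, 7.69 and 8.02. In each of these 4 genes all day 1 arrays lay below all day 0 arrays. Beside the copying enzymes, the flank falls took in 3 MCM genes (MCM2, MCM4 and MCM5), PCNA, TK1 and RRM1. Of the 26, 9 were among the 16 genes of the day 7 nerve comparison, 34.6% of the falls and 56.25% of the 16. Among all 49 genes 26 fell here and 16 were called there, so both shares are near those of the whole list. These comparisons share no arrays. The clamp loader subunit RFC5 and the kinase CDK2 were the 2 that rose (0.30 ± 0.11 and 0.20 ± 0.08). Of 17 muscle genes 1 was called higher and 2 lower at flank day 1, and of 20 fibroblast and matrix markers 4 and 8. Of 17 keratinocyte markers 13 were called higher and 2 lower, of 15 myeloid markers 8 and 3, and of 9 endothelium markers 0 and 4. The part of these shifts in the flank falls was not tested.

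From day 1 to day 3 in the flank 31 genes rose and 1, CDK2, fell, against 14.1% and 12.1% of all probe sets. POLD2 had the smallest adjusted p (1.15 ± 0.08, adjusted p = 1.54e-13), and RFC1 (1.74 ± 0.15) and CHAF1A (1.72 ± 0.24) were also among the genes that rose. At day 3 the flank had 7 genes higher and 2 lower than at day 0, against 12.6% and 14.8%, with POLD2, RFC4 and CHAF1B the first 3 among the higher. Its share higher was near that of the whole array. The higher count was 4 without day 0 replicate 2 and 3 without day 3 replicate 1 or 4.

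At day 7 in the flank 1 gene was higher and 4 were lower than at day 0, against 11.5% and 12.2%. These 4 were PRIM2, CDC25A, POLE and RPA1, and POLD2 was the higher one. Between days 3 and 7 the flank had 1 gene higher and 7 lower, against 7.81% and 4.66%. The riser was CCNE1, from 7.9, 7.78, 7.85 and 7.85 to 8.42, 8.37, 8.33 and 8.37 with no overlap (0.53 ± 0.11, adjusted p = 0.000633). The fallers were MCM6, RPA3, MCM7, CHAF1B, TYMS, MCM4 and UHRF1. Flank day 3 replicate 4 decided this count, which was 0 without it. It was 2 and 13 without day 3 replicates 1 and 2, and 4, 3 and 3 without day 7 replicates 2, 3 and 4.

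Set directly against flank, innervated limb skin had 0 genes called in either direction at day 0, against 1.9% of all probe sets higher and 2.46% lower, with 1 and 2 at an unadjusted limma p under 0.05. At day 1 it had 12 higher and 0 lower, against 2.57% and 2.36%. DNMT1 was the first of these, with 10.19, 10.22, 9.62 and 9.78 in the innervated limb and 9.4, 9.2, 8.99 and 9.27 in the flank (0.74 ± 0.14, adjusted p = 0.000755). MCM4, DUT, MCM2, SLBP and CHAF1A followed. The day 1 count depended on the fit, with 0 in a fit on these 8 arrays alone and 4 without the 3 arrays of highest muscle signal. Without innervated day 1 replicates 2, 3 and 4 it was 2, 6 and 5, and without flank day 1 replicates 2, 3 and 4 it was 7, 3 and 7. The denervated limb at day 1 had 3 higher and 0 lower, DNMT1, SLBP and MCM4, against 0.998% and 1.33%. That count was 0 without denervated day 1 replicate 3 and 7 without flank day 1 replicate 1.

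At day 3 neither limb series had a gene called against the flank by limma. Of all probe sets 3.84% were called higher and 2.4% lower for the innervated limb, and 3.59% and 2.74% for the denervated limb. The innervated count of called genes was 1 without flank day 3 replicate 4. At an unadjusted limma p under 0.05 the innervated limb had 3 higher and 1 lower, against 9.94% and 8.75% of all probe sets. The denervated limb had 2 and 1 at that threshold, against 9.58% and 9.26%.

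At day 7 the innervated limb again stood above the flank, with 17 genes higher and 1 lower, against 4.03% and 5.29% of all probe sets. MCM6 measured 10.68, 10.16, 9.76 and 9.6 against 8.66, 8.71, 8.62 and 8.87 in the flank, with no overlap (1.33 ± 0.31, adjusted p = 0.00329). UHRF1 measured 10.69, 10.08, 9.56 and 9.16 against 8.02, 7.91, 8.07 and 8.11 (1.84 ± 0.44, adjusted p = 0.00429). GINS1 was the lower one (−0.58 ± 0.13), with the flank arrays between 9.11 and 9.28. The licensing loaders CDC6 (1.36 ± 0.39, adjusted p = 0.0182) and CDT1 (0.46 ± 0.13, adjusted p = 0.0153) were called here. The higher count was 6 and 10 without innervated day 7 replicates 1 and 2 and 11 without flank day 7 replicate 3.

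The denervated limb at day 7 had 0 genes higher than the flank and 2 lower, against 3.41% and 3.78%. At an unadjusted limma p under 0.05 it had 0 and 6, against 9.51% and 9.01%. The 2 called lower were GINS1 (−0.72 ± 0.13, adjusted p = 0.000221) and GINS4 (−0.32 ± 0.10). The count was 1 without denervated day 7 replicate 2 or 3 and without flank day 7 replicate 1, 2 or 3. The nerve comparison and the flank comparison of day 7 share the innervated arrays. Of the 49 genes, the innervated mean was the highest of the 3 series for 39, and the denervated mean was the lowest for 34.

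**Figure D5:**
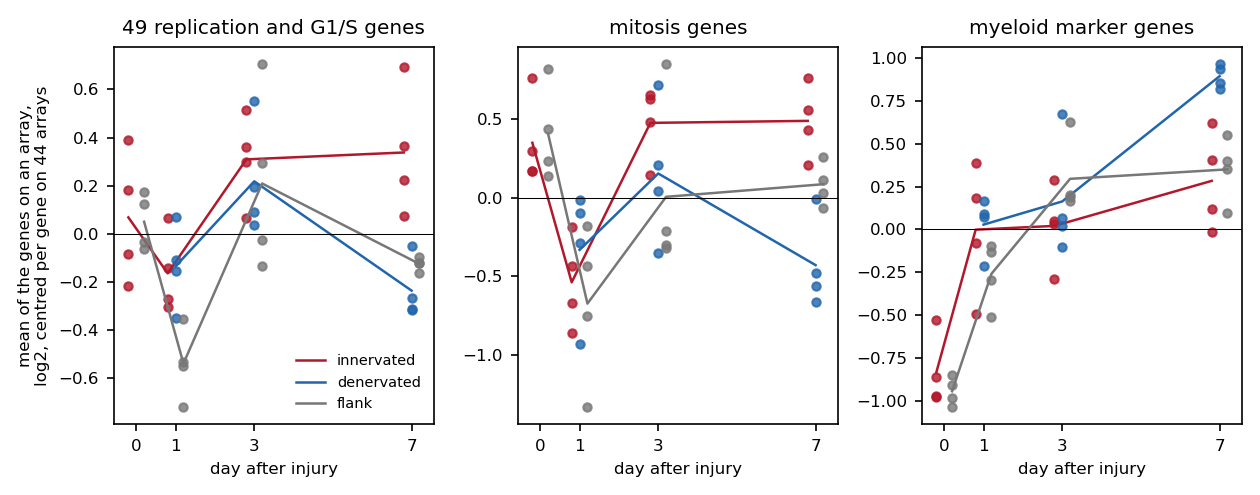
Mean over genes on each array (log2, each gene centred on its mean over 44 arrays) against day after injury for the 49 replication and G1/S genes, 38 mitosis genes and 15 myeloid markers, with points for arrays and lines for means of 4. At day 7 the replication mean runs from 0.07 to 0.69 in the innervated limb and from −0.31 to −0.05 in the denervated limb. The myeloid mean runs from 0.82 to 0.96 in the denervated limb.

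Other genes of replication and G1/S control were followed as a further list of 70, of which 60 were measured. This list and the mitosis list below were also chosen with earlier results known. Both were measured on the same arrays, so they are no separate support. At day 7, 6 were higher with nerve and 0 lower, against 0.804% and 0.893% of all probe sets, and the median difference was 0.19. They were the fork protein WDHD1 (0.70 ± 0.16, adjusted p = 0.0189), deoxycytidine kinase DCK (1.73 ± 0.41, adjusted p = 0.0212), the RNase H2 subunit RNASEH2B (0.35 ± 0.09), cyclin D1 CCND1 (0.55 ± 0.14), the histone chaperone NASP (0.73 ± 0.19) and cyclin A2 CCNA2 (1.33 ± 0.36). DCK measured 8.06, 7.91, 7.08 and 6.7 with nerve and 6.39, 5.73, 5.67 and 5.06 without. CCND1 measured 10.84, 10.86, 10.68 and 10.88 with nerve and 10.23, 10.35, 10.25 and 10.25 without. In both genes the groups were apart, and the CCND1 arrays of each group lay close together. At days 1 and 3 this list had 0 genes called in either direction. Unadjusted limma p was under 0.05 for 2 higher and 3 lower at day 1 and 1 higher and 0 lower at day 3. The shares of all probe sets were 3.45% and 4.45% at day 1 and 3.76% and 2.87% at day 3.

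Mitosis genes went with them at day 7. Of 46 listed, 38 were measured, all 38 had a positive difference, and the median was 0.99. Of these 13 were called higher and 0 lower, against 0.804% and 0.893% of all probe sets. The spindle checkpoint gene MAD2L1 measured 8.85, 8.39, 7.93 and 7.7 with nerve and 7.25, 6.65, 6.66 and 6.46 without (1.46 ± 0.35, adjusted p = 0.0207). The mitotic kinase PLK1 differed by 1.24 ± 0.31 and CDCA8, a subunit of the chromosomal passenger complex, by 1.17 ± 0.29. The mean of the mitosis genes was 0.76, 0.56, 0.43 and 0.21 on innervated replicates 1 to 4 and −0.01, −0.56, −0.48 and −0.66 on denervated replicates 1 to 4. The arrays thus stood in the same order in the innervated limb as for the replication genes, with replicate 1 highest and replicate 4 lowest. At day 1 in the innervated limb 27 of the 38 mitosis genes were lower than at day 0, and 0 were higher, against 21.2% and 14.7% of all probe sets.

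Genes with more than 1 probe set did not always give 1 answer. For PCNA the dimmer probe set was also called at day 7 (1.30 ± 0.29, adjusted p = 0.0127). For CHAF1A the dimmer probe set was called (1.07 ± 0.25, adjusted p = 0.0189) and the brightest was not (0.76 ± 0.24, adjusted p = 0.115). For SLBP they had opposite signs, 0.51 ± 0.18 and −0.23 ± 0.10, neither of them called. Among further probe sets with a mean under 5, that of MCM2 differed by 0.07, that of MCM7 by 0.16 and that of MCM3 by 0.56 ± 0.17 (adjusted p = 0.0902), and both of DUT were near 0. With the mean of all probe sets of a gene, 13 of the 16 genes were still called. DUT then differed by 0.18, MCM2 by 0.57 and MCM7 by 0.67, none of them called, and DNMT1, not called either way, by 0.23 in place of −0.03. In the 27 comparisons there was no gene for which 1 probe set was called higher and another lower.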

How the data were processed

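The authors deposited 1 table of log2 expression values from 44 Affymetrix arrays of an axolotl design. RMA and limma are named in the submitters' processing notes, without a role or a version. The values lie between 2.41 and 15.04 and the array medians between 5.61 and 5.72, and no further scaling or filter was applied. Control probe sets were left out and 20035 entered the tests. The platform annotation gave symbols to 10951 of these (8639 genes), and 9084 were unnamed here. Precision is limited by how many arrays there are: over all probe sets, a day 7 difference between the limb series had a median SE of 0.123.

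Groups were taken from the sample labels. limma 3.58.1 in R 4.3.3 was fitted to all 44 arrays with a mean for each group, leaving 33 residual degrees of freedom, and variances were moderated by empirical Bayes. The 27 comparisons were adjusted by Benjamini-Hochberg over 20035 probe sets each, tests were two-sided, and a call is an adjusted p under 0.05. All p-values given with a gene come from this fit. The fit was tested on simulated arrays with independent normal noise and shifts added to some probe sets. They held no array effect shared between genes, so this does not bear on how counts depend on single arrays. Tables and figures were made with Python 3.11.15 and pandas 2.3.3.

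All members could be named. Values on every array were given for up to 12 members of smallest adjusted p at day 7 between the limb series and up to 4 in each other comparison, and further values by range and count. Of the other replication genes up to 6 were named, and of the mitosis genes up to 3. Any member of a list that did not pass could be given with its value. The members and lists were chosen with earlier results of these data known. DCK, CCND1 and MAD2L1 were given by array after their values were seen, and so were the values of genes in groups beside the comparison that named them.

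The labels give the same replicate numbers in each group. Deviations of same-numbered arrays from their group means correlated above 0.1 for all 4 numbers in 1 of 55 pairs of groups, innervated day 0 with innervated day 7 (mean 0.282), and the median over all pairs was 0.038. A fit with the replicate number as a block is therefore given beside that comparison. Other pairs fell short of this rule but had positive values for all 4 numbers. Among them were flank day 0 with flank day 7 (0.044 to 0.365, mean 0.232) and innervated day 1 with flank day 0 (mean 0.216). No block fit on the arrays of such pairs alone was made. Alternatives were a replicate block, quantile normalization, median centring, a fit on the groups compared only, array weights, an intensity trend, no dimmest 25% of probe sets, the mean of a gene's probe sets, leaving out each array, and leaving out the 3 arrays of highest muscle signal.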

Additional observations from a re-analysis of the deposited data

Results flagged for a closer look

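Among 143 groups of 4 arrays examined, formed by 12 genes and the mean of the 49 genes in the 11 groups, 6 held an array far from the other 3, by a gap over Dixon's critical value for 4 samples. Chance flags about 1 group in 20, and 6 of 143 is not above that rate. The highest denervated day 3 array stood alone for TK1 (6.69) and for RPA3 (11), and this is replicate 2 in both. The highest innervated day 1 array stood alone for FEN1 (9.57) and the highest flank day 7 array for CCNE2 (5.34). For CCNE2 the other 3 arrays lay between 5.25 and 5.26, so the gap was small on the log2 scale. The lowest denervated day 1 array stood alone for RRM1 (9.59) and the lowest flank day 1 array for MCM2 (7.74). TK1 was the 1 gene of the 49 called for a change in its nerve difference from day 1 to day 7, by 2.915 on the log2 scale (limma adjusted p = 0.0177). An unadjusted limma p under 0.05 was reached by 25 of the 49, all in the higher direction, against 5.55% of all probe sets. TK1 was lower in the innervated limb at day 1 on all 4 arrays and higher on all 4 at day 7.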

How the results depend on the processing

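Counts of the 49 genes called depended on single arrays and on the choice of fit. No called gene among those recomputed (all 49 at day 7 between the limb series, and up to 4 called genes in each other comparison) changed sign under an alternative. There were 7 sign changes, in 4 genes not called. With the mean of its probe sets DNMT1 gave 0.23 (main value −0.03), and leaving out 1 array moved DNMT1 between −0.0592 and 0.0208, CCNE1 between −0.1042 and 0.0225, CHEK1 between −0.0542 and 0.1525 and POLD3 between −0.0167 and 0.0333. Otherwise 1860 values stayed on their side of the threshold, 151 no longer passed and 16 newly passed, among them MCM3 in 8 alternatives. For innervated against denervated limb at day 7 (16 higher), 10 were called without the 3 arrays of highest muscle signal, none of which is a day 7 limb array, and 17 with a replicate block. With the mean of a gene's probe sets 15 were called, 13 of them among the 16, and DUT (0.18), MCM2 (0.57) and MCM7 (0.67) were not. All 16, which were chosen with the same arrays, kept a positive difference and an unadjusted limma p under 0.05 in each alternative. On the 8 arrays of innervated days 0 and 7 alone, the fit with a replicate block, chosen after seeing the data, gave 22 higher. The fit without the block gave 4 (11 over all arrays), and shares of all probe sets in these fits are not given here. The block over all arrays moved no count by more than 1.5 times.

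In fits on only the groups compared, the counts were 5 (main value 8) and 4 (11) higher for innervated days 3 and 7 against day 0, 4 (7) for denervated day 3, 3 (7) for flank day 3 and 8 (4) lower for flank day 7. They were 20 (31) for the flank rise from day 1 to 3, 4 (7) for its fall from day 3 to 7, and 0 (12) and 1 (0) for innervated limb against flank at days 1 and 3. With array weights the counts were 11 for flank day 3, 14 (7) for the denervated fall from day 3 to 7, 13 for the flank fall, and 6 and 1 for innervated limb against flank at days 1 and 3. With the mean of a gene's probe sets they were 1 (0) and 6 for innervated limb against flank at days 0 and 1 and 1 (3) for denervated limb against flank at day 1. Without the 3 muscle arrays they were 4 for the denervated fall from day 3 to 7 and 4 for innervated limb against flank at day 1. With median centring or an intensity trend, denervated limb against flank at day 7 had 1 lower (2). The cause of these moves was not tested, beyond the fewer arrays of some fits.

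Leaving out 1 array at a time gave 0 to 19 genes for the nerve comparison at day 7 and 0 to 1 for its change from day 1. Against day 0 it gave 4 to 13 and 6 to 16 higher for innervated days 3 and 7, 3 to 9 higher and 5 to 9 lower for denervated days 3 and 7, and 3 to 10 higher for flank day 3. The falls from day 3 to 7 ranged from 0 to 11 (denervated) and 0 to 13 (flank). Against flank the ranges were 2 to 14, 0 to 1 and 6 to 20 for the innervated limb at days 1, 3 and 7, and 0 to 7 and 1 to 2 for the denervated limb at days 1 and 7.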
